A study of Mus musculus with 4 samples.

Results

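The nuclear genes that encode subunits of the mitochondrial respiratory chain and ATP synthase were compared between whole mouse embryos with and without Nr6a1 (older name Gcnf), a nuclear receptor with no known ligand. Members were all genes whose single platform symbol begins with Nduf followed by a, b, c, s or v and a digit, Sdh followed by a, b, c or d, Uqcr, Cox followed by a digit from 4 to 8, or Atp5. This gave 81 of the 18193 genes with a single symbol on the array, of which 35 fell to complex I, 4 to complex II, 8 to complex III, 17 to complex IV and 17 to complex V by their symbols. The rule used no measured value other than the choice of the brightest probe set of each gene. No filter on dim signal was applied, so that all 81 were tested.

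The samples were 2 wildtype embryos (labelled wt) and 2 homozygous mutants (labelled Gcnf-/-, also written Nr6a1-/-), labelled embryonic day 9.0, with 1 Affymetrix array each. The study's text gives a window of collection that runs past this stage. The mutants lacked Nr6a1 in every tissue, and the line was kept on a single inbred background. RNA was taken from whole embryos. Samples are called embryos after their descriptions, although the labels do not say whether any RNA was pooled. Neither litter nor somite number is stated for them, and embryos without Nr6a1 are known to develop slowly. The p-values rest on the spread between these samples and on a variance that limma pools over probe sets. They reach no further than these samples. In whole embryos, fewer cells of a type and less RNA per cell cannot be told apart.

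The respiratory chain passes electrons from NADH (complex I) and succinate (complex II) through ubiquinone, complex III and cytochrome c to oxygen (complex IV), and pumps protons out of the mitochondrial matrix at complexes I, III and IV. ATP synthase (complex V) uses the returning protons to make ATP. Most subunits are encoded in the nucleus and a few in mitochondrial DNA. Several subunits of complex IV come as a widely expressed form and as a form restricted to heart and skeletal muscle or to testis. Around the stage studied here the mouse embryo begins to rely on its heart and circulation, and mitochondria mature first in heart muscle.

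Nr6a1 itself read 11.53 and 11.80 in wildtype and 11.87 and 12.14 in mutants, on the log2 scale of the robust multi-array average (RMA) that is used for all signals below. The position of its probes relative to the deletion is not stated, and this signal therefore does not check the labels. Pou5f1, a pluripotency gene that Nr6a1 is known to repress, stood at 5.23 and 5.99 in wildtype and at 10.66 and 11.31 in mutants, apart in the direction that the labels give. Control probe sets for 18S ribosomal RNA stood at 9.45 and 9.99 in wildtype and at 10.83 and 10.74 in mutants, a log2 difference of 1.06. By Xist and Eif2s3y, 1 embryo was female, wildtype replicate 1, and the other 3 were male. The X-linked members Ndufa1 and Ndufb11 read 13.26 and 13.04 in the female, close to 13.24 and 13.07 in the male wildtype embryo.

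In size, the differences between the genotypes were small for the respiratory chain genes. Of the 81 members, 0 met both thresholds of the study, a limma adjusted p within 0.05 and a 2-fold change, compared with 0.544% of all genes (0.423% higher and 0.121% lower). Without the fold threshold 1 member passed and was higher, Cox6b2, where 1.4% of all genes passed (1.02% higher and 0.374% lower). At an unadjusted p under 0.05, limma put 14 members higher and 2 lower, or 16 in all (19.8%). The shares over all genes were 11.9% each way and 23.8% in all. Members were brighter than genes at large, with a median signal of 12.7 against 8.06. With limma's variance allowed to follow signal (an intensity trend), 9 members were higher and 1 lower at the adjusted p, where 8.8% of all genes passed. Counts of calls therefore depended on this setting. The 95% interval of the log2 fold change reached 0.18 to either side for the median member. It lay inside a 2-fold change either way for 80 of the 81 members, the exception being Cox6b2, and inside a log2 change of 0.5 either way for 76.

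Small differences ran more often upward than downward. Mutants lay above wildtype for 55 members (67.9%) and below for 26, whereas 47.2% of all genes lay above and 52.8% below. Both mutants exceeded both wildtype embryos for 41 members (50.6%), against 26.2% of all genes. They lay under both for 14 (17.3%), against 30.4% of all genes. The genotypes were thus apart for 55 members (67.9%), against 56.6% of all genes. The median log2 fold change of the members was 0.052, compared with -0.01 over all genes. Shared probe sets are those marked as matching several transcripts, of the same gene or of others. Without them, 37 of the 65 members still measured lay above wildtype, and the median was 0.022. Some members were then read from dim probe sets, among them Ndufb2 (mean signal 6.80), Atp5c1 (7.24) and Cox5b (7.08). The part of this change of probe sets in the lower median was not tested. Replicate embryos differed by a median of 0.039 in wildtype and 0.043 in mutants, and the genotypes by a median of 0.085 in either direction.

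**Figure D1:**
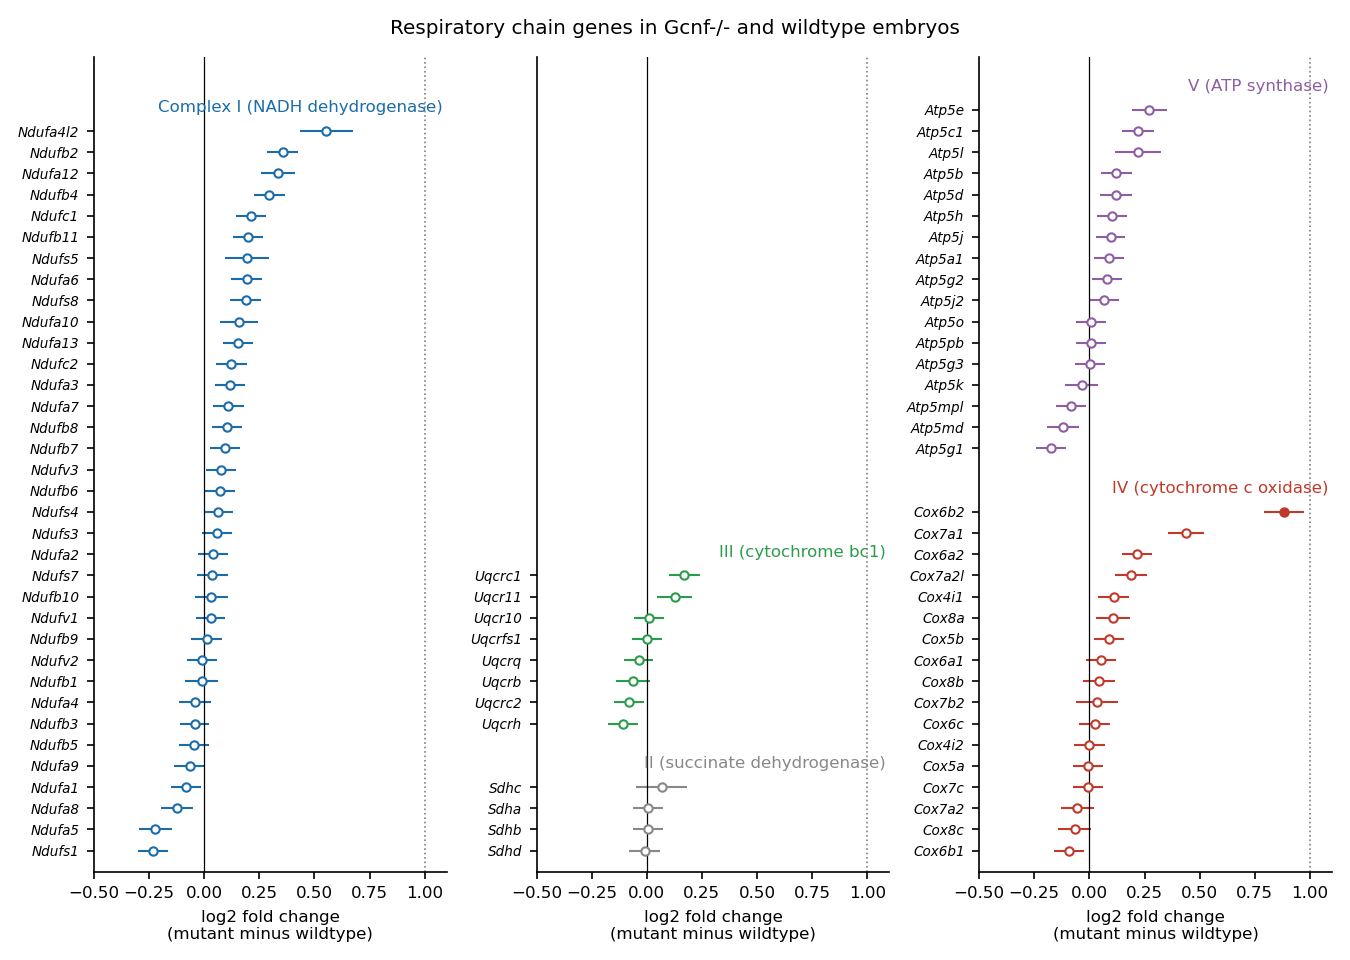
Log2 fold change (horizontal axis, mutant minus wildtype) of the 81 members by complex, with limma's moderated standard errors (n = 2 embryos per genotype). Filled points passed an adjusted p of 0.05 and the dotted line marks 2-fold. Cox6b2 at 0.88 is the only filled point, and the 4 members of complex II lie between -0.01 and 0.07.

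By complex, the median log2 fold change was 0.071 for complex I, 0.004 for complex II, -0.019 for complex III, 0.042 for complex IV and 0.079 for complex V. The medians of complexes I, IV and V stayed above 0 and that of complex III below 0 in all 12 alternative settings, whereas that of complex II changed sign with median centring (-0.017) and ran from -0.008 to 0.006 with 1 embryo left out. Without shared probe sets the medians of complexes IV and V were both 0.013. Averaged over the members of complex I, the signal was 12.07 in both wildtype embryos and 12.16 and 12.15 in mutants. For complex V it was 13.23 and 13.27 in wildtype and 13.30 and 13.32 in mutants. For complex III it was 12.99 and 13.00 in wildtype and 12.99 and 13.00 in mutants, with no separation. No test was run on these averages, since the members are not replicates.

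**Figure D2:**
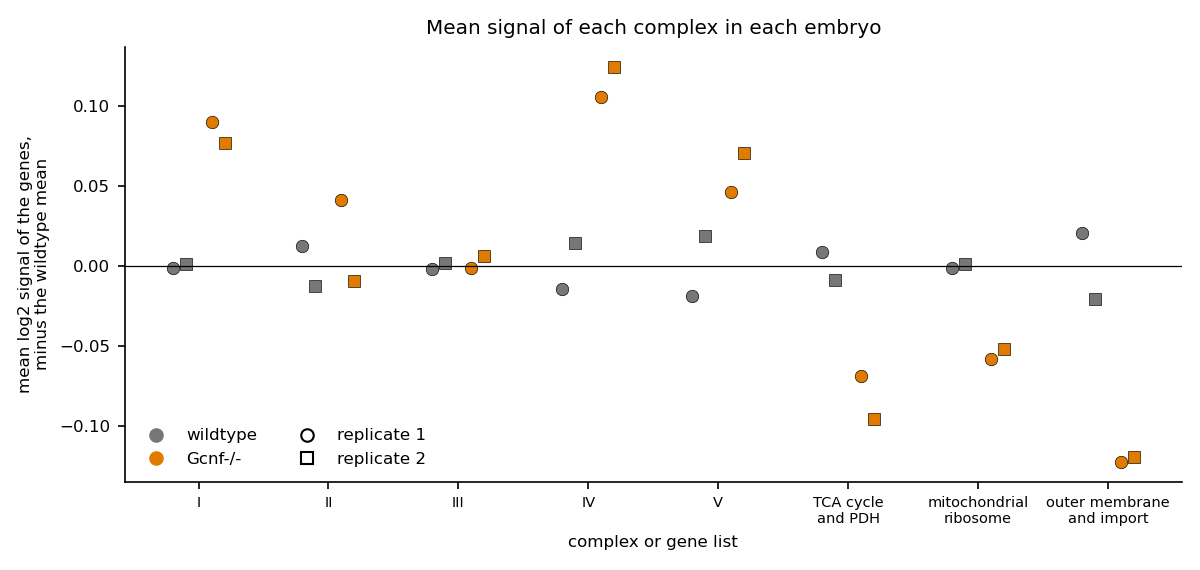
Mean log2 signal of the genes of each complex or list in each embryo (vertical axis, after subtracting the wildtype mean); the symbol gives the replicate (circle 1, square 2) and the colour the genotype (wildtype grey, Gcnf-/- orange). Mutants lie above wildtype for complexes I, IV and V and below for the tricarboxylic acid (TCA) cycle, the mitochondrial ribosome and the import genes, with mean differences between -0.121 (import) and 0.115 (complex IV).

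Complex I takes electrons from NADH through a flavin and a chain of iron-sulphur clusters held by its core subunits, and the other subunits stabilise this arm and the membrane arm. The 6 core subunits measured had a median of 0.033 and 4 of them above wildtype. Ndufs1, which carries iron-sulphur clusters near the NADH site, read 11.92 and 11.90 in wildtype and 11.70 and 11.65 in mutants. Both mutants lay under both wildtype embryos, with a log2 fold change of -0.23 ± 0.07 (SE, moderated by limma; 2 embryos per genotype) that did not pass (adjusted p = 0.160). Ndufs8, an iron-sulphur subunit, read 12.47 and 12.53 in wildtype and 12.68 and 12.70 in mutants (log2 fold change 0.19, limma adjusted p = 0.227). The NADH-binding subunit Ndufv1 stood at 0.03, Ndufv2 at -0.01, Ndufs3 at 0.06 and Ndufs7, which holds the last cluster before ubiquinone, at 0.04.

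Of the 29 other genes named as complex I, 21 lay above wildtype, with a median of 0.093. Ndufb2, a small subunit of the membrane arm, read 12.28 and 12.24 in wildtype and 12.65 and 12.59 in mutants, without overlap. Its log2 fold change was 0.36 ± 0.07 (SE, limma adjusted p = 0.0924). A further probe set of Ndufb2 read 0.28, and the third, which was dim at a mean of 6.80, read 0.03. Ndufa12, an accessory subunit of the arm that reaches into the matrix, read 13.09 and 13.20 in wildtype and 13.51 and 13.45 in mutants. All 4 of its probe sets lay above wildtype, at 0.29 to 0.45, and the one that stands for the gene gave 0.34 ± 0.08 (limma adjusted p = 0.114). Ndufa5, an accessory subunit of the same arm, read 11.93 and 11.81 in wildtype and 11.65 and 11.64 in mutants, a log2 fold change of -0.22 (limma adjusted p = 0.207), and its other probe set gave -0.32. Ndufa8 stood at -0.12 (12.65 and 12.55 against 12.49 and 12.46, adjusted p = 0.427; -0.17 to -0.07 with 1 embryo left out). Of the other genes with an unadjusted p under 0.05 in limma, Ndufc1, Ndufb11 and Ndufa6 stood at 0.21, 0.20 and 0.19, with adjusted p-values of 0.180, 0.208 and 0.215. The largest difference among genes named as complex I was that of Ndufa4l2, described with its paralogue below. Ndufb4 was read from a dim probe set (5.24 in both wildtype embryos, 5.50 and 5.57 in mutants), because its brighter ones also match related genes and carry several symbols.

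Succinate dehydrogenase, complex II, also serves in the TCA cycle and has no subunit from mitochondrial DNA. Its flavoprotein Sdha read 12.07 and 12.13 in wildtype and 12.11 and 12.10 in mutants. The iron-sulphur subunit Sdhb read 12.56 and 12.61 against 12.58 and 12.60, and the membrane anchor Sdhd 12.48 and 12.45 against 12.43 and 12.47. The genotypes overlapped for all 4 subunits. The intervals of the differences were -0.17 to 0.18 for Sdha and Sdhb, -0.18 to 0.16 for Sdhd and -0.23 to 0.37 for Sdhc, the other anchor, whose replicates differed most.

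In complex III, which hands electrons from ubiquinol to cytochrome c, 3 of 8 subunits lay above wildtype. Uqcrc1, a core protein of the matrix side, read 12.73 and 12.78 in wildtype and 12.91 and 12.95 in mutants, without overlap (log2 fold change 0.17, limma adjusted p = 0.257). Its partner Uqcrc2 read 12.63 and 12.61 in wildtype and 12.56 and 12.52 in mutants (-0.08, adjusted p = 0.566), and its other probe set gave -0.003. Uqcrfs1, the Rieske iron-sulphur protein, read 12.61 and 12.62 against 12.62 and 12.60. The hinge protein Uqcrh stood at -0.11 and Uqcr11 at 0.13, neither past the threshold. With 1 embryo left out Uqcr11 ran from 0.07 to 0.18. Uqcrb, which helps to bind ubiquinone, stood at -0.06 (-0.12 to -0.001 with 1 embryo left out), and Uqcr10 at 0.01 with overlapping genotypes.

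Complex IV reduces oxygen to water with a catalytic core encoded in mitochondrial DNA and nuclear subunits around it. The member that passed the adjusted p was Cox6b2, the testis form of subunit VIb, which faces the space between the membranes where cytochrome c binds. It read 9.56 and 9.72 in wildtype and 10.59 and 10.46 in mutants, so that the groups were apart by more than the spread within either. Its log2 fold change was 0.88 ± 0.09 (SE, 2 embryos per genotype; adjusted p = 0.0374 in limma), a rise of 1.84-fold that was short of the study's 2-fold. Over 12 alternative settings its value ran from 0.80 to 0.96 and its adjusted p from 0.00598 to 0.264, and it passed in 7. It did not pass with any of the embryos left out (limma adjusted p of 0.264 without wildtype replicate 1, 0.124 without wildtype replicate 2, 0.240 without mutant replicate 1 and 0.220 without mutant replicate 2) or with the replicate number as a block (0.177). These designs called almost nothing, with 0 of all genes passing in 4 of them and 5 genes without wildtype replicate 2, so that the loss says little about Cox6b2 itself. Cox6b1, the widely expressed form, read 13.56 and 13.57 in wildtype and 13.44 and 13.51 in mutants (-0.09, adjusted p = 0.520).

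Beside Cox6b2, a list of 10 germ line and testis markers had 6 above wildtype and a median of 0.01. Of these only Sycp3, a protein of the meiotic chromosome axis, passed, and it read 4.89 and 4.96 in wildtype and 6.78 and 7.07 in mutants (log2 fold change 2.00, limma adjusted p = 0.0133). Like every call, it was lost with the replicate block and without wildtype replicate 1 or either mutant, where 0 genes passed. Before adjustment 3 genes of the list were higher and 0 lower (limma p under 0.05), where 11.9% of all genes lay each way. Beside Sycp3 these were Hspa2 (0.54, limma adjusted p = 0.0554) and Dppa3 (0.50, adjusted p = 0.104). The list had 4 genes below wildtype. Among them Tex19.1 had the largest difference, at -0.67 (limma adjusted p = 0.298). It read 8.21 and 7.32 in wildtype and 6.93 and 7.25 in mutants. Prdm1 stood at -0.095 without overlap, and Ldhc was flat at 0.01. Mael, Pgk2 and Dazl were dim, at mean signals of 3.70, 3.89 and 4.38, so that their values say little. The mean of the list was 6.01 and 5.96 in wildtype and 6.16 and 6.31 in mutants. The testis forms Cox7b2 and Cox8c stood at 0.03 and -0.07, with overlapping genotypes. Cox7b2 was dim, at a mean signal of 3.77 where the lowest of all genes was 3.02, so that its value says little. The part of germ line transcripts in the Cox6b2 result was not tested.

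Of the muscle forms of complex IV subunits, Cox7a1 and Cox6a2 lay above wildtype without passing, and Cox8b overlapped. Cox7a1, the heart and skeletal muscle form of subunit VIIa, read 8.10 and 8.21 in wildtype and 8.65 and 8.54 in mutants, without overlap (0.44 ± 0.08 on the log2 scale, limma adjusted p = 0.0875). Its counterpart Cox7a2 read 14.17 and 14.09 against 14.11 and 14.04, with overlap (-0.06). Cox7a2l, a related protein that joins complexes III and IV, stood at 0.19 (adjusted p = 0.239). Cox6a2, the heart and skeletal muscle form of subunit VIa, read 8.44 and 8.43 in wildtype and 8.68 and 8.61 in mutants (0.22, adjusted p = 0.188), and its counterpart Cox6a1 stood at 0.05. Cox8b, the muscle form of subunit VIII, read 5.99 and 6.06 against 6.04 and 6.10, with overlap and a 95% interval of -0.14 to 0.23. The differences between a muscle form and its counterpart were not tested.

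The heart muscle markers lay above wildtype in the same embryos. Of 16 markers 13 lay above, where 47.2% of all genes did, and the median difference was 0.37. Before adjustment 9 were higher and 0 lower (limma p under 0.05), where 11.9% of all genes lay each way. Myl3, a ventricular myosin light chain, was the one called (10.94 and 11.31 in wildtype, 12.39 and 12.34 in mutants, limma adjusted p = 0.0404). At both thresholds of the study 0.544% of all genes were called, and 1.4% at the adjusted p alone. The Myl3 call too was lost with the replicate block, where 0 of all genes passed. Other markers did not rise, with Myl2 at -0.09, Myh7 at 0.007 and Smpx at -0.005 (genotypes overlapping) and Mybpc3 at -0.135. The mean of the list was 10.55 and 10.79 in wildtype and 11.10 and 10.99 in mutants, with signals of 7.49 to 13.78 for single markers. The part of heart muscle in the values of Cox7a1 and Cox6a2 was not tested. Primitive red cell markers, a further list with 8 of 9 above wildtype (median 0.41, 0 passing in limma and 5 before adjustment), averaged 10.46 and 10.64 in wildtype and 11.02 and 10.91 in mutants. The yolk sac endoderm markers had 8 of 10 below wildtype (median -0.20, means of 13.26 and 13.15 against 13.09 and 12.96). Of the trophoblast and decidua markers, 4 of the 6 measured lay above (median 0.18, means of 6.16 and 6.15 against 6.37 and 6.35). In both of these lists 0 passed in limma, with 3 yolk sac markers lower and 3 trophoblast and decidua markers higher before adjustment (p under 0.05). Of all genes 11.9% were higher and 11.9% lower at that p.

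**Figure D3:**
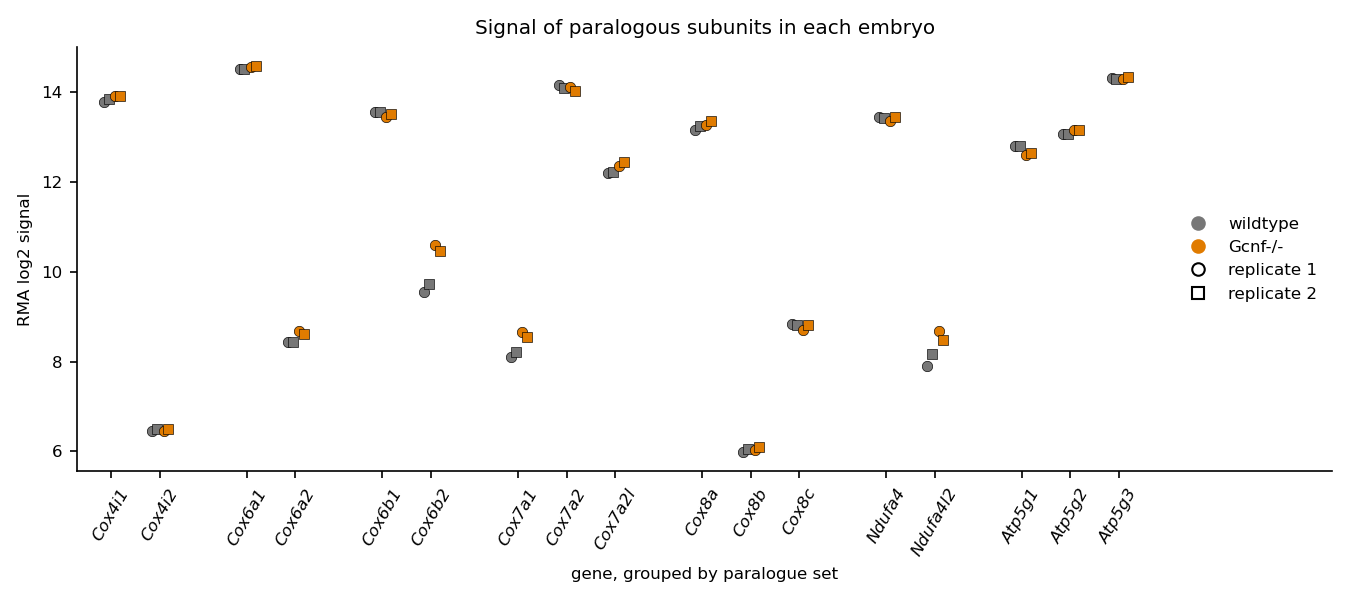
RMA log2 signal (vertical axis) of each embryo for sets of related subunit genes; symbols and colours mark replicate (circle 1, square 2) and genotype (wildtype grey, Gcnf-/- orange). Cox6b2, Cox7a1, Cox6a2 and Ndufa4l2 show mutants above wildtype, while Cox4i2 (6.46 and 6.51 in either genotype) and Cox8b overlap; levels of different genes rest on different probes and are not comparable.

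Of the widely expressed subunits of complex IV, Cox4i1 read 13.78 and 13.84 in wildtype and 13.92 in both mutants (0.11, limma adjusted p = 0.447). Its paralogue Cox4i2, a form of lung and of low oxygen, had the same mean in both genotypes, with an interval of -0.18 to 0.18. Cox5a, next to the catalytic core, read 14.04 and 14.06 against 14.03 and 14.06, and Cox5b stood at 0.09. Cox6c and Cox8a stood at 0.03 and 0.11. Without Cox6b2, the mean log2 fold change of complex IV was 0.067 in place of 0.115, and the median 0.038. Over the 7 forms restricted to some tissues, Cox6b2 among them, the median was 0.042 and the mean 0.221. Over the other 10 genes the median was 0.039 and the mean 0.041. Before adjustment 3 of the 7 and 1 of the 10 were higher and 0 lower (limma p under 0.05), where 11.9% of all genes lay each way.

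Ndufa4 was named as a complex I subunit and is now known to belong to complex IV. It read 13.45 and 13.42 in wildtype and 13.35 and 13.44 in mutants, with overlap. Its paralogue Ndufa4l2, known for its induction in low oxygen, read 7.91 and 8.16 in wildtype and 8.69 and 8.49 in mutants. The groups did not overlap, and its log2 fold change was 0.55 ± 0.12 (limma adjusted p = 0.106), the second highest among the members. It ran from 0.43 without wildtype replicate 1 to 0.68 without wildtype replicate 2.

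ATP synthase consists of a catalytic head (F1) in the matrix and a proton channel in the membrane. The 5 subunits of F1 all lay above wildtype, at 0.09 to 0.27, and limma passed 0 of them. Before adjustment 2 were higher at a p under 0.05, as were 11.9% of all genes. Atp5e, the epsilon subunit, read 12.59 and 12.73 in wildtype and 12.93 in both mutants (0.27 ± 0.08, adjusted p = 0.161). Atp5c1, the gamma subunit that forms the rotor shaft, read 13.20 and 13.27 in wildtype and 13.43 and 13.48 in mutants (0.22, adjusted p = 0.194), whereas a dim probe set of the gene with a mean of 7.24 read -0.02. The catalytic beta subunit Atp5b read 13.86 and 13.93 in wildtype and 14.02 in both mutants (0.12, adjusted p = 0.405). Atp5a1, the alpha subunit, stood at 0.09 and Atp5d, the delta subunit, at 0.12. In wildtype the mean signal of the F1 genes was 13.42 and 13.49, and in mutants 13.60 and 13.63.

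The remaining 12 genes of complex V had a median of 0.007 and 8 above wildtype. Atp5g1, Atp5g2 and Atp5g3 encode the same c subunit of the membrane ring behind different targeting sequences. Atp5g1 read 12.80 in both wildtype embryos and 12.60 and 12.65 in mutants, the lowest value of the complex (-0.17, limma adjusted p = 0.249). Atp5g2 stood at 0.08 and Atp5g3 at 0.00, with 14.32 and 14.30 against 14.29 and 14.34. Atp5l, a small membrane subunit, stood at 0.22 with wildtype replicates of 12.58 and 12.82 (adjusted p = 0.320), and ran from 0.10 to 0.34 with 1 embryo left out. Atp5md and Atp5mpl, small proteins bound to the membrane part, stood at -0.12 and -0.09.

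Other genes of mitochondrial respiration were described from lists set by role. Of 11 carriers and further components 5 lay above wildtype and 6 below, with a median of -0.003. Before adjustment 3 were higher and 1 lower (limma p under 0.05), where 11.9% of all genes lay each way. Etfa is the alpha subunit of the flavoprotein that brings electrons from fatty acid oxidation to ubiquinone. It read 11.35 and 11.52 in wildtype and 12.31 and 12.24 in mutants, a rise of 0.84 on the log2 scale (± 0.09 SE, limma adjusted p = 0.0387). Etfa was the only gene of these mitochondrial lists to pass the adjusted p, which 1.4% of all genes passed (1.02% higher). This call too was lost with the replicate block and without wildtype replicate 1 or either mutant, where 0 of all genes passed. Its partner Etfb stood at 0.14, and Etfdh, which passes these electrons on, at 0.40 (9.94 and 10.08 against 10.42 and 10.40, adjusted p = 0.0963). Cycs, the somatic cytochrome c, read 13.61 and 13.54 in wildtype and 13.14 and 13.20 in mutants (-0.41, adjusted p = 0.0811). Atpif1, the inhibitor of ATP synthase, stood at 0.35 (adjusted p = 0.104). ND5, the mitochondrially encoded complex I subunit with a single symbol on the array, read 13.13 and 13.15 against 13.17 and 13.04, with an interval of -0.23 to 0.17.

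Of 46 assembly factors 21 lay above wildtype, and the median was -0.02. In limma 0 passed, while 5 were higher and 9 lower at an unadjusted p under 0.05 (11.9% of all genes each way). Ndufaf4, an assembly factor of complex I, read 11.79 and 11.73 in wildtype and 11.31 and 11.24 in mutants (-0.48, adjusted p = 0.0619). Cox10, which takes part in making the haem A of complex IV, stood at -0.69 (adjusted p = 0.0869). Sco1, which delivers copper to complex IV, stood at -0.32 (adjusted p = 0.107). Ttc19, a factor of complex III, stood at 0.65 (8.36 and 8.61 against 9.14 in both mutants, adjusted p = 0.0659). These 4 genes had genotypes that did not overlap, as did 56.6% of all genes. They were named for the smallest p of the list, so that the separation adds nothing.

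Lists of the mitochondrial matrix and its import had medians on the other side of 0 from complexes I, IV and V. Of 16 genes of the TCA cycle and pyruvate dehydrogenase 11 lay below wildtype (median -0.065), with Dlat, a subunit of pyruvate dehydrogenase, at -0.27 and citrate synthase Cs at -0.25. Of 76 mitochondrial ribosomal proteins 47 lay below (median -0.058), of 20 genes of biogenesis and mitochondrial DNA upkeep 15 (median -0.065), and of 14 genes of the outer membrane and import 11 (median -0.112). Tomm70a, an import receptor, read 11.38 and 11.31 in wildtype and 11.10 and 11.02 in mutants, and the coactivator gene Pprc1 stood at -0.32. Among ribosomal proteins Mrpl47 stood at -0.33 and Mrpl34 on the other side at 0.41. In limma 0 genes of these 4 lists passed, with 5, 12, 3 and 5 lower and 0, 2, 1 and 0 higher at an unadjusted p under 0.05. Of all genes 52.8% lay below wildtype, and 11.9% were lower and 11.9% higher at that p. Of 10 genes of coenzyme Q synthesis 6 lay above wildtype (median 0.005, 0 passing and 1 higher and 2 lower at an unadjusted p under 0.05). No set of genes was tested against another.

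**Figure D4:**
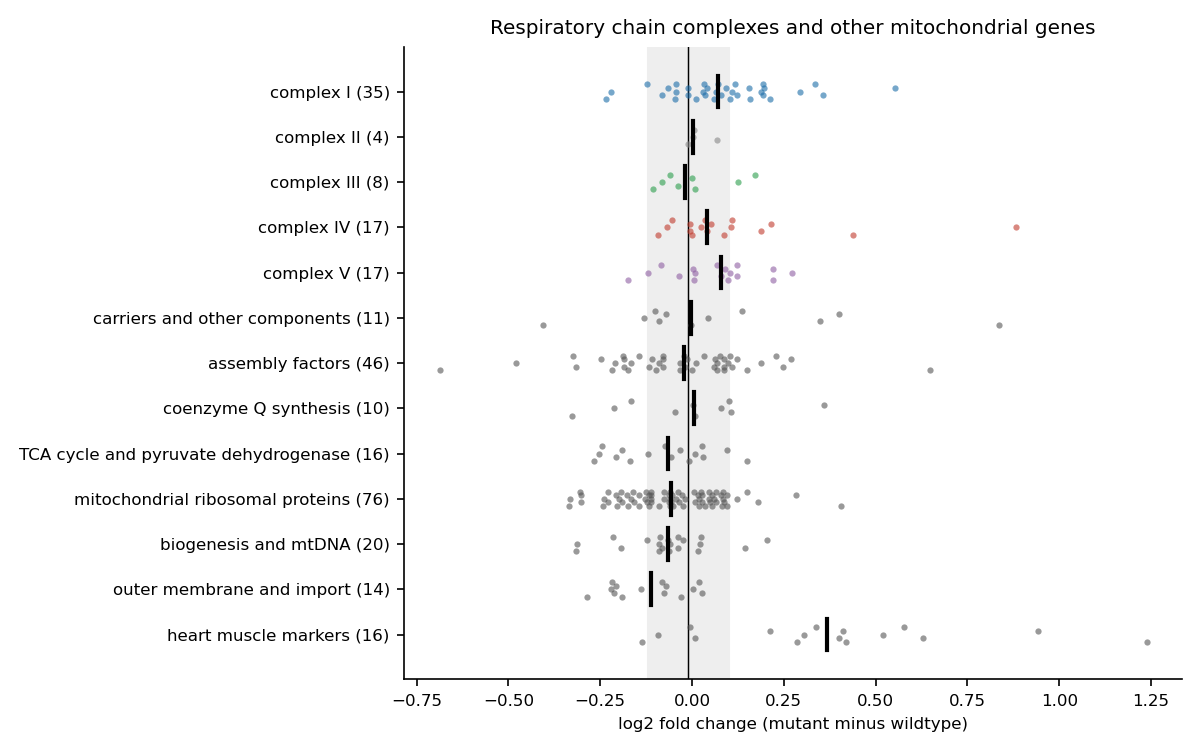
Log2 fold change (horizontal axis, mutant minus wildtype) of each gene of the 5 complexes, of other mitochondrial lists and of heart muscle markers, with list medians as black bars and gene numbers in brackets. The thin line and grey band are the median (-0.01) and the quartiles of all genes (-0.12 and 0.10); the medians of the complexes run from -0.019 to 0.079, and that of the heart markers is 0.37.

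Nr6a1 binds as a dimer to direct repeats of AGGTCA without a spacer, and promoters of respiratory chain genes are known for sites of NRF1, of ETS factors such as GABP and of YY1. RefSeq promoters (build GRCm38.p6, 250 bases before to 50 after each start) were matched by symbol for 66 members and searched on both strands, beside those of 14452 genes on the array. The full repeat, AGGTCA directly followed by AGGTCA, was in 0 members' windows and in 0.00692% of all genes. The shorter AAGGTCA was in 8 members (12.1%) and 4.61% of all genes, and TCAAGGTCA, which contains it, in 2 members (3.03%), Sdhd and Atp5g3, and 0.401% of all genes. The NRF1 motif, GCGCA and GCGC with 1 free base between them, was in 15 members (22.7%, all genes 8.61%), the ETS motif CCGGAAG in 17 (25.8%, all genes 15%) and the YY1 motif AANATGGCG in 9 (13.6%, all genes 4.24%). Matches of these letters are descriptions of the windows and not sites shown to be bound. Cox6b2 and Cox7a1 had none of these motifs in their windows.

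The 8 windows with AAGGTCA are shown because this core is shared by the receptor absent here and by related receptors. Each is 30 bases, 5′ to 3′ on the strand of the gene, with the motif (or TGACCTT, its reverse complement) in capitals.
Ndufb2, chr6:39592373-39592402, plus strand: ggagcagcagtAAGGTCAgccaagagcacc
Ndufb4, chr16:37654405-37654434, minus strand: tcctgagcctgAAGGTCAgactcgagaggg
Atp5e, chr2:174464059-174464088, minus strand: ctactcaggccTGACCTTcctgctgccggg
Atp5l, chr9:44920737-44920766, minus strand: gaggggcagccTGACCTTggaaatggggaa
Ndufs5, chr4:123718396-123718425, minus strand: tttctcgagtgTGACCTTgctcaagtagca
Atp5g3, chr2:73911360-73911389, minus strand: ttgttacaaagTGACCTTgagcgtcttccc
Sdhd, chr9:50603800-50603829, minus strand: tttccgggttgtagagTGACCTTgagccct
Atp5k, chr5:108434358-108434387, minus strand: cttccggcgcgAAGGTCAcggacaaaatgg
The first 5 of these genes had log2 fold changes of 0.36 (Ndufb2), 0.295 (Ndufb4), 0.27 (Atp5e), 0.22 (Atp5l) and 0.19 (Ndufs5), and the last 3 of 0.00 (Atp5g3), -0.01 (Sdhd) and -0.04 (Atp5k). Their median was 0.207, against 0.062 over the members without the motif. It rests in part on the dim probe set of Ndufb4 and on Ndufs5, whose probe sets with several symbols read lower (0.176 and 0.203 for Ndufb4, 0.079 for Ndufs5) and would lower it. None of the 8 passed the threshold, the members were searched with these values known, and the difference was not tested. Members with the NRF1 motif had a median of 0.052 and those without it 0.068, and the medians were 0.071 and 0.065 for the ETS motif and 0.097 and 0.052 for the YY1 motif. Windows with the NRF1 motif are shown for its members of highest and lowest value after Ndufb4, Atp5c1 at 0.22 and Ndufa5 at -0.22, with the motif in capitals.
Atp5c1, chr2:10080430-10080459, minus strand: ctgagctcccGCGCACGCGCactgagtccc
Ndufa5, chr6:24527697-24527726, minus strand: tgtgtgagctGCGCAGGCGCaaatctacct
The same motif thus stood before a gene on either side of 0.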

How the data were processed

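Whole-embryo RNA was hybridised to Affymetrix Mouse Genome arrays. The authors deposited log2 signals made with RMA, which corrects background, quantile-normalises arrays and summarises probe sets; no version, chip definition or build is named for it. This normalisation removes shifts shared by most transcripts, and near the top of the scale differences can be compressed. Nothing was normalised again for the main values.

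Of 45101 probe sets, 64 controls were left out. The platform annotation gave 34945 a single symbol, 932 several and 9160 none. Each of 18193 genes was read from its brightest probe set by mean signal. All 81 members matched RefSeq (GRCm38.p6) by Entrez identifier with unchanged symbols. A further 9 probe sets carried a member's name among several symbols and were left out. Retrotransposed copies of these genes are common, so that probe sets of shared sequence can read more than the named gene.

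Genotypes were compared with lmFit and eBayes of limma 3.58.1 (R 4.3.3) on all 4 arrays and 45037 probe sets, genotype being the only term, with Benjamini-Hochberg adjustment and the study's thresholds (adjusted p of 0.05, 2-fold). Intervals are limma's 95% intervals. With 2 arrays against 2 the smallest two-sided p of an exact permutation test is 0.333. Calls therefore rest on the variance that limma pools over probe sets, and the number of arrays limits precision. Members and lists were chosen with earlier results of these data known. Of the lists, 3 assembly factors, 3 coenzyme Q genes, 4 trophoblast markers and 1 gene each of 5 others had no probe set with a single symbol. Named were members past the adjusted p, the 3 highest, 3 lowest and 3 smallest p of each complex, paralogue sets and core subunits. Of each further list, up to 4 genes were named by p. Etfb was added as the partner of Etfa after its value was seen. Heart and germ line markers that were flat, lower or dim were added in the same way.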

Additional observations from a re-analysis of the deposited data

How the results depend on the processing

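The count of members called at 2-fold was 0 in all 12 alternatives. Members passing the adjusted p whatever their fold numbered 1 higher and 0 lower in the main comparison. They numbered 0 with the replicate number as a block and 0 with any embryo left out (both have fewer residual degrees of freedom), where 0 of all genes passed, or 5 without wildtype replicate 2. They numbered 5 higher among brighter probe sets (fewer tested; 77 members measured), where 12% of all genes passed, 2 higher with the mean of all probe sets of a gene, where 4.02% passed, and 9 higher and 1 lower with an intensity trend, where 8.80% of all genes passed against 1.40%. The cause was not tested for the last 2 settings. The replicate numbers were not taken as pairs, as the deviations of embryos with the same number had a correlation of 0.06.

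The median over the members was 0.063 with repeated quantile normalisation, 0.030 with median centring, 0.042 with the mean of probe sets and 0.022 without shared probe sets (0.052 to 0.061 with 1 embryo left out). In the same order complex I gave 0.086, 0.050, 0.046 and 0.062 (0.065 to 0.087) and complex III -0.008, -0.040, -0.038 and -0.032 (-0.020 to -0.003). Complex II gave 0.015, -0.017 and 0.037 in the first 3 (-0.008 to 0.006). Complex IV gave 0.070 among brighter probe sets, 0.020 with median centring and 0.013 without shared probe sets (0.025 to 0.070). Complex V gave 0.058 with median centring and 0.013 without shared probe sets (0.074 to 0.084). Median centring shifted all genes from -0.010 to -0.032; the cause of the other moves was not tested.

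Signs were followed over the settings for 50 of the 81 members, those picked by the naming rule above, and not for the rest. Among the rest signs turned too, as for Ndufb8 (0.104), read at -0.135 from a dim probe set without shared ones. Of the 50, none whose sign turned was called in the main comparison. All of these but Atp5c1 (0.22) and Cox5b (0.088) lay near 0 there. Signs turned for Sdhd (0.009) and Uqcrfs1 (0.015) with quantile normalisation, for Atp5g3 (-0.018), Sdha (-0.017), Sdhb (-0.018) and Uqcr10 (-0.013) with median centring, for Cox5a (0.032), Ndufv2 (0.041), Sdhd (0.016) and Uqcr10 (-0.095) with the mean of probe sets, and for Atp5c1 (-0.017), Cox5b (-0.038) and Uqcr10 (-0.167) without shared probe sets. With 1 embryo left out, values ran Atp5g3 from -0.019 to 0.027, Cox4i2 from -0.027 to 0.027, Cox5a from -0.022 to 0.012, Cox7b2 from -0.066 to 0.134, Ndufa4 from -0.086 to 0.001, Ndufv2 from -0.043 to 0.022, Sdha from -0.024 to 0.035, Sdhb from -0.02 to 0.027, Sdhc from -0.061 to 0.194, Sdhd from -0.033 to 0.013, Uqcr10 from -0.011 to 0.028 and Uqcrfs1 from -0.006 to 0.005. With an intensity trend Ndufb2, Ndufa12, Ndufc1, Ndufb11, Ndufs1, Cox7a1, Atp5c1, Atp5e and Ndufa4l2 passed beside Cox6b2.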
